A study of Mus musculus with 42 samples.

Results

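The genes described here are 10 members of the bone morphogenetic protein (BMP) pathway in endothelial cells, chosen by name from the 21674 genes of the deposited table. They are the ligands Bmp2, Bmp4 and Bmp6, the receptors Bmpr2 and Acvrl1 with the co-receptor Eng, the inhibitory Smads Smad6 and Smad7, and the target genes Id1 and Id3. All 10 had a row in the table and are followed through 35 libraries of carotid intimal RNA and 7 libraries of cultured aortic endothelial cells of the mouse. The study asked how arterial endothelium responds to low flow, and how that response depends on recruited platelets, granulocytes and macrophages and on the splicing factor Rbfox2.

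BMP ligands bind pairs of type I and type II receptor kinases on the cell surface. The active receptors phosphorylate Smad1, Smad5 and Smad9, which enter the nucleus with Smad4 and switch on target genes, among them the Id genes and the inhibitory Smads that restrain the pathway in turn. In endothelium the pathway is known for its part in vessel quiescence, and inherited loss of ACVRL1 or ENG causes hereditary haemorrhagic telangiectasia while loss of BMPR2 causes pulmonary arterial hypertension.

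Flow was lowered in the left carotid artery by partial ligation, in which all distal branches but the superior thyroid artery were tied. The untreated arm held 3 low-flow pools, 3 pools of the contralateral artery, which carries high flow, and 3 pools of sham-operated arteries, all at 48 hr in male C57BL/6J (Jax) mice of 6 to 7 weeks. The treated arm used the same strain, sex, age and time. Low-flow arteries came from mice given anti-GPIba, which depletes platelets, anti-Gr1, which depletes granulocytes, the IgG control, clodronate liposomes, which deplete macrophages, or PBS liposomes. High-flow arteries came from the IgG and the PBS liposome mice, and each of these 7 groups had 2 libraries. At 7 days, male and female mice of a C57 background and 2 to 7 months of age carried Rosa26-mTmG and Rbfox2 lox/lox, without Cre (littermate controls) or with Cdh5(PAC)-CreERT2 (EC-KO), in which an endothelial promoter drives the recombinase. The floxed Rbfox2 and the reporter were thus shared by both genotypes. These mice gave 3 low-flow and 2 high-flow libraries for each genotype. Every carotid library pooled 3 to 5 arterial flushes, so the p-values given here measure the spread between pools and not between single animals. An intimal flush is bulk RNA, and fewer endothelial cells and less RNA per endothelial cell cannot be told apart in it.

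The carotid libraries held from 4064477 to 19035957 expected counts on genes, and the culture libraries from 9598893 to 16394043. All 11 endothelial markers (Cdh5, Pecam1 and others) were above 3 counts in the carotid libraries, and their summed share of counts ran from 0.456% to 0.597% in the untreated low-flow pools against 0.926% to 1.11% at high flow and 0.88% to 1.16% in sham arteries. The 8 macrophage markers made up 0.2% to 0.327% of counts at low flow against 0.0058% to 0.0128% at high flow. Smooth muscle markers made up 0.233% to 0.43% at low flow and 0.0523% to 0.062% at high flow, neutrophil markers 0.0235% to 0.0457% against 0.0006% to 0.0019%, fibroblast markers 0.0056% to 0.0367% against 0.0261% to 0.0765%, and fat cell markers 0.0029% to 0.007% against 0.0254% to 0.251%. Actb took 10.57% and 10.1% of the counts in low-flow pools A and B, 3.74% in pool C and at most 1.5% in the other 6 pools. These values moved with flow in the untreated pools, and their part in the results was not tested. Levels are in FPKM, fragments per kilobase of effective length, scaled to the total counts of the library, unless said to be TMM-scaled, in which case the library total is multiplied by edgeR's normalization factor. The untreated pools (100 bp reads) and the treated and 7 d libraries (150 bp reads) differed in level for some members, with Smad6 at 1.19 to 7.89 FPKM in the former and 36.5 to 174 in the latter, so levels are compared within each set only.

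The members spanned a wide range of transcript levels. In the untreated high-flow pools D, E and F, Id3 was highest at 3017, 2450 and 2176 FPKM, followed by Bmp4 at 552, 626 and 451 FPKM and Id1 at 296, 223 and 236 FPKM. Eng, Bmp6 and Acvrl1 came next, at 37.5 to 49.9, 37.6 to 47.5 and 32.3 to 48.1 FPKM, and their ranges overlapped. Smad7, Smad6 and Bmpr2 lay at 7.72 to 8.72, 4.83 to 7.89 and 4.91 to 5.93 FPKM, with overlap between Smad6 and each of the other two. Bmp2 was lowest, at 0.396, 0.554 and 0 FPKM, which is 4, 8 and 0 counts.

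Promoter sequences are shown for 3 members that rose together after platelet depletion, Bmp6, Bmpr2 and Smad6, and for the abundant target Id3. Of the 10 members, 6 matched an entry in the table of RefSeq promoters (GRCm38.p6), which holds the 250 bases before and the 50 bases after a gene's start. Capitals mark any match, on either strand, to GGCGCC or GGAGCC, which are GC-rich letters of known BMP response elements, or to CAGAC, the letters of the Smad binding element. The sequences run 5′ to 3′ on the strand of the gene, and their positions are chr13:38345466-38345765 for Bmp6, chr1:59764029-59764328 for Bmpr2, chr9:64022010-64022309 for Smad6 (minus strand) and chr4:136143572-136143871 for Id3.
Bmp6: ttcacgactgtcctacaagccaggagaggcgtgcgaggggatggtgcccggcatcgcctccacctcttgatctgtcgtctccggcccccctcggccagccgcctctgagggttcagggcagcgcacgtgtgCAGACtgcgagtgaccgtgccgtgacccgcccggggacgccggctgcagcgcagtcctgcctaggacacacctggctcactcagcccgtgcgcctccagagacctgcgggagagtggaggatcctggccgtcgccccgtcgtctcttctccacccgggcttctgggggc
Bmpr2: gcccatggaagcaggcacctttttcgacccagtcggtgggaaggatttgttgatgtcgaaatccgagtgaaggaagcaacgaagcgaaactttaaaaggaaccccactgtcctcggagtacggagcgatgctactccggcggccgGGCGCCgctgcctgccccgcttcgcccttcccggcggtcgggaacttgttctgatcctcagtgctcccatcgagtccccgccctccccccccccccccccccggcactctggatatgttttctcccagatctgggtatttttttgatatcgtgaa
Smad6: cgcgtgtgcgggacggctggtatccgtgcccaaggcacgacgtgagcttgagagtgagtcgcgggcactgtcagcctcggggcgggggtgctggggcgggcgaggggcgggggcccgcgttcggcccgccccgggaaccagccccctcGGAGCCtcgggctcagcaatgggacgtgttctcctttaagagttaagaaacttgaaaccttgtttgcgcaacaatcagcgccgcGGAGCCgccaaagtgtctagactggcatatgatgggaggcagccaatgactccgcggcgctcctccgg
Id3: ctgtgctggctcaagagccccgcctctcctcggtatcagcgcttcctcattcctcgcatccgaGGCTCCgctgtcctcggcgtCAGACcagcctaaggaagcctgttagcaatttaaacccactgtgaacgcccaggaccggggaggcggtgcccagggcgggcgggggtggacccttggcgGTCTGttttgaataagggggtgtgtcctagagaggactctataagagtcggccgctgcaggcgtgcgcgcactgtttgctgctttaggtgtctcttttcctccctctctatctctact
Smad6 held 2 copies of GGAGCC, Bmpr2 held 1 GGCGCC, Bmp6 held 1 CAGAC, and Id3 held 1 GGAGCC (as its reverse complement) and 2 CAGAC. Of all 32851 promoters in the table, 11.9% held GGCGCC, 30.8% GGAGCC and 49.6% CAGAC, so each motif is common and a match is a description of the letters and nothing more.

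Low flow at 48 hr in untreated mice lowered the receptors Bmpr2 and Acvrl1, the ligand Bmp6, the inhibitory Smad7 and the target Id1 relative to the high-flow artery. Of the 9 members that passed the filter on low counts, these 5 fell and 0 rose by edgeR (adjusted p under 0.05), with a median log2 fold-change of −0.75 over the 9 members and −0.07 over all genes tested. Over all 11236 genes tested, 22.6% were called lower. Bmp2 did not pass the filter. DESeq2 called the same 5 members.

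Among the ligands, Bmp2 (chr2:133377895-133388621 of mm9, plus strand) stayed at 3 counts or fewer in each low-flow pool, with 0.124, 0.095 and 0.222 FPKM in pools A, B and C. It had 1.1, 0.519 and 0.259 FPKM in sham pools G, H and I, and at these counts no difference can be read. Bmp4 (chr14:47003195-47010344, minus strand), a ligand known to be induced by disturbed flow in cultured endothelium, had 400.2, 274 and 649 FPKM at low flow and 711, 599.9 and 561 FPKM in sham arteries. Scaled by TMM, Bmp4 had 703, 498 and 579 FPKM at low flow and 495, 527 and 381 FPKM at high flow. The groups overlapped on both scales, and the log2 fold-change was 0.33 ± 0.31 (SE, n = 3 and 3, adjusted p = 0.40). Bmp6 (chr13:38436995-38592183, plus strand), a ligand that endothelial cells secrete, had 11.1, 8.84 and 34.4 FPKM at low flow, 37.6, 47.5 and 44.5 FPKM at high flow and 68.6, 74.8 and 51.1 FPKM in sham arteries. Every low-flow pool of Bmp6 lay below every pool of both other groups, although pool C came close to high-flow pool D. Bmp6 fell with a log2 fold-change of −0.74 ± 0.23 (adjusted p = 0.024) against high flow and −1.29 ± 0.26 (adjusted p = 0.0068) against sham.

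Among the receptors, Bmpr2 (chr1:59821481-59927703, plus strand), the type II receptor of BMPs, had 0.963, 0.651 and 3.5 FPKM at low flow, resting on 22, 10 and 67 counts. It had 5.93, 5.71 and 4.91 FPKM at high flow and 5.92, 6.88 and 4.33 FPKM in sham arteries. The log2 fold-change of Bmpr2 was −1.16 ± 0.31 (adjusted p = 0.011) against high flow and −1.16 ± 0.33 (adjusted p = 0.025) against sham. Acvrl1 (chr15:100958953-100975767, plus strand), the endothelial type I receptor also called Alk1, had 7.99, 12.6 and 25.4 FPKM at low flow. It had 48.1, 46.1 and 32.3 FPKM at high flow and 38.4, 53.7 and 38 FPKM in sham arteries, again with no overlap. Acvrl1 fell with a log2 fold-change of −0.88 ± 0.25 (adjusted p = 0.014) against high flow and −0.88 ± 0.24 (adjusted p = 0.02) against sham. The co-receptor Eng (chr2:32502115-32538189, plus strand), which presents ligands to Acvrl1, was not called. On the TMM scale Eng had 38.6, 53.4 and 58.5 FPKM at low flow, 44.7, 36.4 and 31.6 FPKM at high flow and 45.3, 51.8 and 45.8 FPKM in sham arteries, and the groups overlapped.

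Among the inhibitory Smads, Smad7 (chr18:75527183-75555589, plus strand), which blocks both BMP and TGF-β receptors, had 1.51, 0.786 and 3.35 FPKM at low flow. It had 8.63, 7.72 and 8.72 FPKM at high flow and 8.28, 10.2 and 8.72 FPKM in sham arteries, so the low-flow pools stood apart from the other 6. Smad7 was 2.95-fold lower at low flow than at high flow (log2 fold-change −1.56 ± 0.25, adjusted p = 0.00052) and 3.12-fold lower than in sham arteries (−1.64 ± 0.25, adjusted p = 0.0023). Smad6 (chr9:63800953-63869866, minus strand), which acts mainly on BMP receptors, had 2.4, 1.19 and 4.29 FPKM at low flow, 7.89, 7.55 and 4.83 FPKM at high flow and 7.21, 7.23 and 6.45 FPKM in sham arteries. On the TMM scale the low-flow and high-flow pools of Smad6 overlapped. Smad6 had a log2 fold-change of −0.75 ± 0.29 (adjusted p = 0.057) against high flow, which missed the threshold. It fell against sham with −0.74 ± 0.25 (adjusted p = 0.041).

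Among the targets, Id1 (chr2:152561987-152563146, plus strand), an inhibitor of basic helix-loop-helix factors that BMP signalling induces, separated all 3 groups. It had 41.1, 47.2 and 68.4 FPKM at low flow, 145, 165 and 182 FPKM in sham arteries and 296, 223 and 236 FPKM at high flow, with no overlap. Id1 was 3.01-fold lower at low flow than at high flow (log2 fold-change −1.59 ± 0.22, adjusted p = 0.00021) and 1.9-fold lower than in sham arteries (−0.92 ± 0.19, adjusted p = 0.0079). High flow against sham gave Id1 a log2 fold-change of 0.68 ± 0.20 (unadjusted p = 0.0065, adjusted p = 0.36). Id3 (chr4:135699412-135701670, plus strand), a family member of Id1, was spread widely on the TMM scale at low flow, with 4219, 3291 and 1197 FPKM in pools A, B and C against 2705, 2064 and 1835 FPKM at high flow. Its log2 fold-change was 0.39 ± 0.48 (adjusted p = 0.53).

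Against sham, 6 of the 9 members tested fell and 0 rose, the same 5 and Smad6, where 19.7% of the 11164 genes tested were called lower. DESeq2 called 5 of the 6, without Smad6 (adjusted p = 0.087). Both comparisons share the low-flow pools. Between high flow and sham, edgeR called 0 of the 9 members and 0 of 11030 genes (0%), against 101 by DESeq2, and the unadjusted p was under 0.05 for 868 genes. Of the members, Bmp6 (unadjusted p = 0.011) and Id1 had an unadjusted p under 0.05 there, and DESeq2 called 0.

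Leaving out single pools changed some of these calls. Smad7, Id1 and Bmpr2 fell at low flow against high flow in each of the 6 leave-one-out fits. Bmp6 was lost without pool A, B, E or F (log2 fold-change −1.05 to −0.56 over the 6 fits) and Acvrl1 without pool A or D (−1.06 to −0.68). Against sham, Bmp6, Smad7 and Id1 were called in all 6 fits, Bmpr2 was lost without pool A, B, G or H, Acvrl1 without A or H, and Smad6 without any of the 6 (adjusted p from 0.053 to 0.11). Without low-flow pool C, Id3 was called higher at low flow, with adjusted p = 0.013 against high flow and 0.021 against sham.

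The direction of 3 members depended on how libraries were scaled. The shift between library totals and TMM moved the median log2 fold-change of all genes between low and high flow from −0.69 to −0.07. On library totals, Bmp4, Eng and Id3 had log2 fold-changes of −0.30, −0.16 and −0.46, where TMM gave 0.33, 0.41 and 0.39, and none of these 6 values was called. The 6 members that fell against sham were called lower on library totals in both comparisons. Of the 11 endothelial markers, 2 were called higher and 3 lower at low flow than at high flow with TMM, although their summed share lay lower. When the libraries were instead scaled to the summed endothelial markers, which lie lower at low flow, 33.4% of all genes were called between low and high flow, 2844 higher and 914 lower at low flow where TMM gave 2652 and 2543, and Smad7 (−1.20, adjusted p = 0.011) and Id1 (−1.31, adjusted p = 0.00039) remained lower. On that scale Eng was called higher (0.76, adjusted p = 0.0497), and Bmp6, Bmpr2 and Acvrl1 were not called. Against sham, Smad7 (−1.35, adjusted p = 0.0087) was the 1 member called on that scale, and Bmp6 (−0.94), Bmpr2 (−0.82), Acvrl1 (−0.59), Smad6 (−0.47) and Id1 (−0.72) were not.

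**Figure D1:**
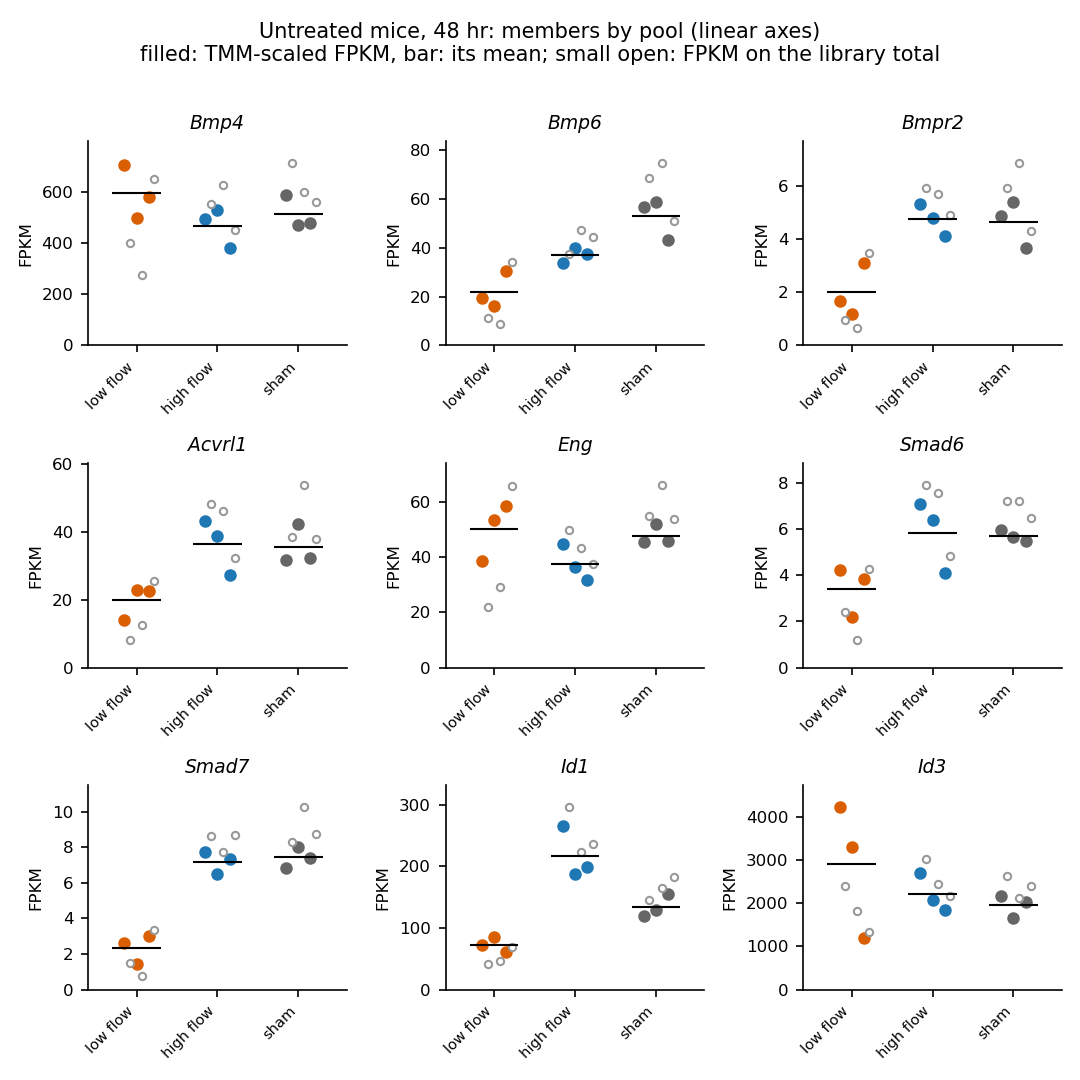
FPKM (vertical axes, linear) of 9 members in the 3 low-flow, 3 high-flow and 3 sham pools at 48 hr, where filled points are TMM-scaled FPKM, bars their group means, and small open points FPKM on the library total. The low-flow pools of Smad7 and Id1 lie below all 6 other pools on both scales, while Id3 spreads from 1197 to 4219 TMM-scaled FPKM at low flow. Bmp2 is left out because its counts are near 0.

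In mice that received control treatments, flow was compared again at 48 hr. In IgG mice, 5 of the 10 members fell and 0 rose at low flow, namely Bmpr2, Acvrl1, Eng, Smad6 and Smad7, where 17.7% of 13401 genes were called lower. In PBS liposome mice, edgeR called Acvrl1 lower and none of the other 9, where 15.5% of genes were called lower, and DESeq2 also called Smad6 (adjusted p = 0.045). All low-flow libraries of the treated mice carry the name of one sequencing run in their column headers and the high-flow libraries that of a later run, so flow and run cannot be told apart in these 2 comparisons.

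Acvrl1 fell in both control treatments. It had 52.6 and 43.2 FPKM at low flow and 118 and 114 FPKM at high flow in IgG mice (log2 fold-change −1.36 ± 0.26, n = 2 and 2, adjusted p = 0.0028). In PBS liposome mice it had 52.3 and 37.3 FPKM at low flow and 109 and 87.8 FPKM at high flow (−1.02 ± 0.25, adjusted p = 0.01). Smad7 had 5.37 and 2.86 FPKM at low flow and 26.9 and 24.7 FPKM at high flow in IgG mice, 6.67-fold lower (−2.74 ± 0.46, adjusted p = 0.0018). In PBS liposome mice Smad7 had 4.78 and 2.86 FPKM at low flow against 7.07 and 5.6 FPKM at high flow (−0.62 ± 0.44, adjusted p = 0.29), so the low-flow levels were alike and the high-flow levels were not. The difference between these 2 flow effects was −2.12 ± 0.62 on the log2 scale (unadjusted p = 0.0058, adjusted p = 0.62). That test called 0 of 13401 genes (0%) with edgeR, against 30 by DESeq2, and the unadjusted p was under 0.05 for 801 genes. Of the 10 members it called 0 with either tool, and Smad7 and Eng had an unadjusted p under 0.05.

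Eng was the other member with an unadjusted p under 0.05 in that test. It had 101 and 91.9 FPKM in IgG and 44.8 and 33.5 FPKM in PBS liposome mice at high flow, against 47.1 and 35.6 and 41.9 and 30.1 FPKM at low flow. Eng fell in IgG mice with a log2 fold-change of −1.30 ± 0.36 (adjusted p = 0.015) and had −0.01 ± 0.35 (adjusted p = 0.98) in PBS liposome mice. Bmpr2 had 8.63 and 4.23 FPKM at low flow and 13.5 and 13.5 FPKM at high flow in IgG mice (−1.16 ± 0.40, adjusted p = 0.039). Smad6 had 63.7 and 41.9 against 119 and 138 FPKM in the same mice (−1.37 ± 0.30, adjusted p = 0.0051). In PBS liposome mice Bmpr2 (−0.71 ± 0.40, adjusted p = 0.19) and Smad6 (−0.72 ± 0.29, adjusted p = 0.075) were lower in both low-flow libraries than in both high-flow libraries but missed the threshold with edgeR.

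Bmp6 and Id1 were not called in either control treatment. Bmp6 had 383 and 215 FPKM at low flow and 432 and 432 FPKM at high flow with IgG, and 296 and 159 against 449 and 327 FPKM with PBS liposomes, without overlap in either (adjusted p = 0.24 and 0.23). Id1 had 89.7 and 115 against 163 and 161 FPKM with IgG (log2 fold-change −0.75 ± 0.30, adjusted p = 0.066), and 88.1 and 117 against 99.5 and 105 FPKM with PBS liposomes, where the libraries overlapped (0.11 ± 0.30, adjusted p = 0.79). Bmp4 and Id3 had log2 fold-changes of 0.26 ± 0.33 and 0.01 ± 0.35 with IgG and of 0.71 ± 0.34 and 0.41 ± 0.35 with PBS liposomes. In IgG mice, Acvrl1 and Smad7 were called in all 4 leave-one-out fits, Bmpr2 was lost without low-flow library 2 or either high-flow library, Eng without low-flow library 2 or high-flow library 1, and Smad6 without low-flow library 2. In PBS liposome mice, Acvrl1 was lost without low-flow library 2 or high-flow library 1.

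The summed share of the 11 endothelial markers moved with flow in these mice as well, though single markers went both ways. With IgG, 2 of these markers were called higher and 5 lower at low flow, and with PBS liposomes 2 higher and 4 lower. Their share was 0.535% and 0.661% at low flow and 1.81% and 1.82% at high flow with IgG, and 0.495% and 0.516% against 1.05% and 1.38% with PBS liposomes. Macrophage markers made up 0.204% and 0.227% at low flow and 0.0062% and 0.0236% at high flow with IgG, and 0.125% and 0.216% against 0.0094% and 0.0187% with PBS liposomes. Smooth muscle markers made up 0.437% and 0.472% against 0.0507% and 0.0762% with IgG, and 0.589% and 0.302% against 0.0484% and 0.0923% with PBS liposomes. Scaled to these markers, 71.8% of genes were called with IgG and 52.9% with PBS liposomes, most of them higher at low flow (9448 of 9617 and 6772 of 7088). On this scale Smad7 remained lower in IgG mice (−1.07, adjusted p = 0.025), whereas Bmpr2 (0.50), Acvrl1 (0.33), Eng (0.38) and Smad6 (0.31) turned positive and were not called. Bmp4 (1.95), Bmp6 (1.04) and Id3 (1.72) were called higher in IgG mice, and Bmp4, Eng, Id1 and Id3 in PBS liposome mice, where Acvrl1 turned to 0.12 and lost its call.

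Platelet depletion raised 3 members in the low-flow artery. Against IgG, anti-GPIba gave higher Bmp6, Bmpr2 and Smad6, and 0 of the 10 members were called lower, where 6.05% of 13401 genes were called higher. The IgG low-flow libraries are shared with the flow comparison above. The median log2 fold-change was 0.98 over the members and −0.04 over all genes.

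Bmp6 had 955 and 657 FPKM with anti-GPIba and 383 and 215 FPKM with IgG, 2.65-fold higher (log2 fold-change 1.41 ± 0.42, n = 2 and 2, adjusted p = 0.043). Bmpr2 had 18.1 and 13.9 FPKM against 8.63 and 4.23 FPKM (1.29 ± 0.40, adjusted p = 0.049). Smad6 had 113 and 153 FPKM against 63.7 and 41.9 FPKM (1.31 ± 0.30, adjusted p = 0.026). The groups did not overlap for any of the 3, yet all 3 calls were lost in each of the 4 leave-one-out fits, with adjusted p from 0.051 to 0.32. In those fits the log2 fold-changes were 1.06 to 1.87 for Bmp6, 0.88 to 1.88 for Bmpr2 and 1.06 to 1.63 for Smad6, and over all genes 1 to 89 were called, against 2216 with all libraries. With the reads trimmed to 100 bp, an alternative added after the data were seen, Smad6 was the 1 member still called (1.43 ± 0.32, adjusted p = 0.034).

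The other 7 members were not called by edgeR, and DESeq2 called Acvrl1 (adjusted p = 0.017) and Bmp4 (adjusted p = 0.027) besides the 3. Bmp4 had 830 and 689 FPKM with anti-GPIba against 418 and 350 FPKM with IgG (0.96 ± 0.34, adjusted p = 0.067), and Acvrl1 86.8 and 78.6 against 52.6 and 43.2 FPKM (0.76 ± 0.25, adjusted p = 0.058). Smad7 had 8.74 and 8.14 against 5.37 and 2.86 FPKM (1.01 ± 0.44, adjusted p = 0.12). Id3 had 1187 and 1815 against 814 and 899.5 FPKM (0.78 ± 0.35, adjusted p = 0.13), and Eng 55.9 and 44 against 47.1 and 35.6 FPKM (0.24 ± 0.35, adjusted p = 0.64). Bmp2 had 33 and 53 counts with anti-GPIba against 15 and 19 counts with IgG (1.29 ± 0.75, adjusted p = 0.23). Id1 was the one member whose libraries all lay below those of IgG, with 58.7 and 74.7 against 89.7 and 115 FPKM (−0.65 ± 0.30, adjusted p = 0.14).

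Marker shares also differed between the anti-GPIba and IgG libraries. Endothelial markers made up 1.17% and 1.18% of counts with anti-GPIba, against 0.535% and 0.661% with IgG, and macrophage markers 0.0163% and 0.0244% against 0.204% and 0.227%. Smooth muscle markers, 6 genes such as Myh11, made up 0.0724% and 0.102% against 0.437% and 0.472%, and fibroblast markers 0.0536% and 0.0984% against 0.0306% and 0.0248%. Neutrophil markers made up 0.0006% and 0.0008% against 0.0319% and 0.0111%. The 5 platelet markers made up 0.0023% and 0.0029% against 0.0037% and 0.0033%, with 1 of them called higher and 1 lower. The part of these marker shares in the rise of Bmp6, Bmpr2 and Smad6 was not tested on its own. Scaled to endothelial markers, 47.1% of genes were called, 6218 of 6317 lower with anti-GPIba, and the log2 fold-changes of Bmp6, Bmpr2 and Smad6 were 0.49, 0.38 and 0.38, with no call. On that scale Id1 was the 1 member called, and it fell (−1.62 ± 0.46, adjusted p = 0.015).

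With all libraries, edgeR called no member after granulocyte or macrophage depletion. For anti-Gr1 against IgG, edgeR called 0 of the 10 members and 0 of 13401 genes (0%), against 142 by DESeq2, and the unadjusted p was under 0.05 for 2432 genes. Of the members, 5 had an unadjusted p under 0.05. These were Bmp6 (783 and 700.4 FPKM, log2 fold-change 1.33 ± 0.42), Acvrl1 (63.3 and 89.2 FPKM, 0.70 ± 0.25), Smad6 (75.4 and 112 FPKM, 0.86 ± 0.29), Smad7 (5.42 and 13.6 FPKM, 1.25 ± 0.44) and Id1. Id1 had the lowest levels of the treated mice here, with 46.5 and 28.2 FPKM against 89.7 and 115 FPKM with IgG (−1.45 ± 0.31, unadjusted p = 0.00055, adjusted p = 0.24), and DESeq2 called it (adjusted p = 0.013). Neutrophil markers made up 0.0013% and 0.0026% of counts with anti-Gr1, against 0.0319% and 0.0111% with IgG, and fibroblast markers 0.0874% and 0.0619% against 0.0306% and 0.0248%. Endothelial markers made up 0.896% and 1.01% with anti-Gr1 and macrophage markers 0.0905% and 0.113%, and their part in these values was not tested.

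For clodronate against PBS liposomes, 16 of 13401 genes (0.119%) and 0 of the 10 members were called by edgeR. The unadjusted p was under 0.05 for 2002 genes and for 3 members, and DESeq2 called 0 members. Bmp6 had 768 and 351 FPKM with clodronate against 296 and 159 FPKM with PBS liposomes (1.18 ± 0.42, adjusted p = 0.26). Smad6 had 105 and 69.7 against 45.1 and 43.7 FPKM (0.87 ± 0.29, adjusted p = 0.25). Id1 had 48.7 and 84 against 88.1 and 117 FPKM (−0.73 ± 0.30, adjusted p = 0.30). The groups did not overlap for these 3 members, and the share of all genes without overlap was not counted. Endothelial markers made up 0.697% and 1.06% of counts with clodronate, against 0.495% and 0.516% with PBS liposomes, and macrophage markers 0.0207% and 0.0219% against 0.125% and 0.216%. Neutrophil markers made up 0.0024% and 0.003% against 0.0092% and 0.028%, and smooth muscle markers 0.244% and 0.27% against 0.589% and 0.302%. The part of these shares in the values was not tested. Without clodronate library 2, Bmp6 was called (adjusted p = 0.042). In a further pool of 100 bp reads for each liposome treatment, which has no replicate and entered no test, Bmp6 had 75.7 FPKM with clodronate and 41 FPKM with PBS liposomes, and Id1 104 and 118 FPKM.

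Whether the depletions differ was tested directly. Anti-GPIba against anti-Gr1 called 0 of the 10 members and 0 of 13401 genes (0%) with edgeR, against 354 by DESeq2, and the unadjusted p was under 0.05 for 1409 genes. Id1 (0.80 ± 0.30, adjusted p = 0.39) and Id3 (0.85 ± 0.35, adjusted p = 0.43) were the 2 members with an unadjusted p under 0.05, both higher with anti-GPIba, and DESeq2 called 0 members. The anti-GPIba effect minus the clodronate effect gave 0 calls among the members and 0 of 13401 genes (0%) with edgeR and with DESeq2, with 434 genes at an unadjusted p under 0.05 and no member among them. The standard errors of that difference ran from 0.35 for Acvrl1 to 1.08 for Bmp2 on the log2 scale, so only large differences could have been called.

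**Figure D2:**
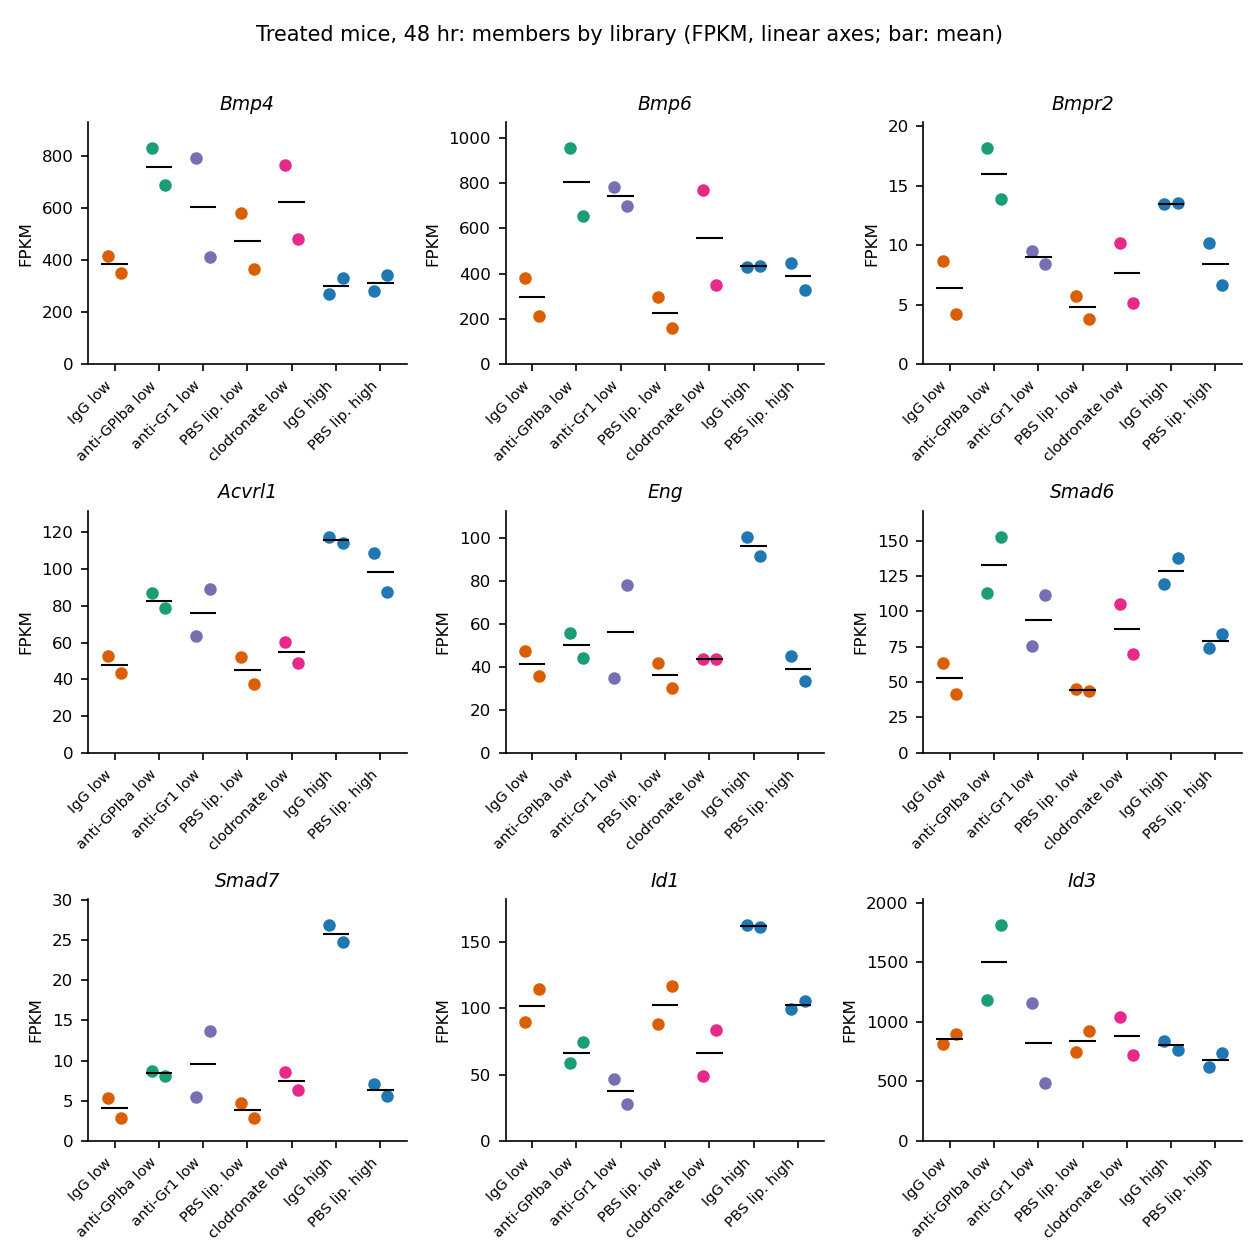
FPKM (vertical axes, linear) of 9 members in the 2 libraries of each of 7 treated groups at 48 hr, with bars at the group means. Acvrl1 at high flow lies above the IgG and PBS liposome low-flow libraries, and Bmp6 and Smad6 with anti-GPIba lie above the IgG low-flow libraries. Smad7 and Eng differ between the IgG and PBS liposome libraries at high flow.

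At 7 days the low-flow artery of control mice had lower Acvrl1, Smad7 and Id1, and that of EC-KO mice lower Smad7 and Id1. In control mice 3 of the 10 members fell and 0 rose, where 1.44% of 13352 genes were called lower, and in EC-KO mice 2 of 10 fell and 0 rose, where 0.741% were called lower. DESeq2 also called Acvrl1 in EC-KO mice (adjusted p = 0.0042) and Eng in control mice (adjusted p = 0.04), and the flow by genotype term of Acvrl1 was 0.34 ± 0.29 (edgeR, adjusted p = 0.99). Fits of only the 2 groups compared called 0 members in control mice, where 3 genes were called, and 4 members in EC-KO mice, where 858 were. Rbfox2 itself, the deleted gene, had 2.74 to 5.73 FPKM in the 5 control libraries and 0.17 to 1.09 FPKM in the 5 EC-KO libraries.

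Id1 had 48.9, 40.1 and 18.9 FPKM in low-flow libraries 1, 4 and 5 of control mice and 275 and 136 FPKM in high-flow libraries 4 and 5. This was a 6.05-fold difference (log2 fold-change −2.60 ± 0.44, n = 3 and 2, adjusted p = 0.026). In EC-KO mice Id1 had 47.2, 31.4 and 32 FPKM at low flow and 350.3 and 170.1 FPKM at high flow, a 7.04-fold difference (−2.82 ± 0.44, adjusted p = 0.02). Library 4 was the higher of the high-flow libraries in both genotypes, and the low-flow libraries lay well below it and library 5.

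Smad7 had 13.5, 5.41 and 7.78 FPKM at low flow and 30.6 and 37.2 FPKM at high flow in control mice (−2.03 ± 0.34, adjusted p = 0.026). In EC-KO mice it had 9.7, 6.61 and 11.3 FPKM at low flow and 30.8 and 30.5 FPKM at high flow (−1.75 ± 0.34, adjusted p = 0.046). Acvrl1 had 65.7, 64.8 and 50.6 FPKM against 134 and 125 FPKM in control mice (−1.19 ± 0.20, adjusted p = 0.027), and 73.3, 63.5 and 52.6 against 122 and 104 FPKM in EC-KO mice (−0.85 ± 0.20, adjusted p = 0.088). The low-flow libraries of all 3 genes lay below all high-flow libraries of their genotype.

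The share of all genes with every low-flow library below every high-flow library was not counted, so such separations are given as values only. In control mice, 4 more members had low-flow libraries below both high-flow libraries without an adjusted p under 0.05. These were Bmpr2 (11.9, 3.15 and 4.61 against 13.4 and 14.6 FPKM, adjusted p = 0.21), Eng (93.5, 54.8 and 56.3 against 97.3 and 121 FPKM, adjusted p = 0.097), Smad6 (113, 36.5 and 62.2 against 118 and 174 FPKM, adjusted p = 0.15) and Id3 (994, 349 and 328 against 1258 and 1025 FPKM, adjusted p = 0.13). In EC-KO mice the same held for Eng, Smad6 and Id3 (adjusted p = 0.31, 0.44 and 0.32), while the Bmpr2 libraries overlapped (17, 6.47 and 7.18 against 9.46 and 10.9 FPKM). In each of the 4 in control mice, library 1 was the highest of the low-flow libraries. Library 1 of both genotypes came from an earlier sequencing run by its column header, and its endothelial marker share in control mice was 1.18%, against 0.566% and 0.604% in libraries 4 and 5 and 1.59% and 1.65% at high flow. In EC-KO mice the share was 0.833% to 1.02% at low flow and 1.7% to 1.75% at high flow. Macrophage markers made up 0.0282% to 0.148% at low flow and 0.0047% to 0.0122% at high flow in control mice, and 0.0602% to 0.133% against 0.007% to 0.0079% in EC-KO mice. Fibroblast markers made up 0.0994% to 0.341% in EC-KO low-flow libraries and 0.034% to 0.0971% in the other 3 groups. Smooth muscle markers made up 0.11% to 0.177% at low flow and 0.0274% to 0.0389% at high flow over both genotypes. The part of these shares in the results was not tested. Without both libraries of that run, an alternative added after the data were seen, edgeR called 8 members lower in control mice (all but Bmp2 and Bmp4) and 4 in EC-KO mice (Acvrl1, Smad7, Id1 and Id3). With those libraries left out, 3840 genes were called in control and 1100 in EC-KO mice, in either direction. Without control low-flow library 4 or 5 or either control high-flow library, 0 members were called in control mice, and in EC-KO mice 0 were called in each of the 5 leave-one-out fits. Over all genes those fits called 3 to 52 in control and 1 to 15 in EC-KO mice. Over the 5 fits in control mice the log2 fold-changes were −3.00 to −2.04 for Id1, −2.43 to −1.76 for Smad7 and −1.24 to −1.12 for Acvrl1, and in EC-KO mice −3.22 to −2.28 for Id1 and −1.92 to −1.58 for Smad7.

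With TMM scaling and all libraries, edgeR called no ligand with flow at 7 days. Without library 1, Bmp6 was called lower in control mice (adjusted p = 0.029). Bmp4 had 547, 214 and 388 FPKM at low flow and 285 and 412 FPKM at high flow in control mice, and 608, 343 and 405 against 263 and 365 FPKM in EC-KO mice, with overlap in both. Bmp6 had 799.9, 268 and 407 against 550.1 and 712 FPKM in control mice. In EC-KO mice Bmp6 had 752, 481 and 553 FPKM at low flow and 376 and 419 FPKM at high flow, so that here the low-flow libraries were the higher ones (0.57 ± 0.41, adjusted p = 0.53). Bmp2 was above 3 counts in all 10 libraries and ran from 0.643 to 7.32 FPKM, with EC-KO low-flow library 4 the highest. The log2 fold-change of Bmp2 with flow was −0.15 ± 0.91 in control and 1.07 ± 0.93 in EC-KO mice, and the libraries overlapped in both.

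Scaled to endothelial markers, 50.8% of genes were called between low and high flow in control mice, 6704 of 6789 of them higher at low flow. Smad7 (−0.89, adjusted p = 0.045) and Id1 (−1.41, adjusted p = 0.028) remained lower, Bmp4 was called higher (1.21, adjusted p = 0.022), and Acvrl1 turned to 0.08 (adjusted p = 0.85). In EC-KO mice 0 members were called on that scale.

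Loss of Rbfox2 in endothelium called none of the 10 members at either flow. At low flow edgeR called 0 of 13352 genes (0%), against 11 by DESeq2, and the unadjusted p was under 0.05 for 880 genes, and at high flow 1 of 13352 (0.00749%). The low-flow count rested on 1 library, since without control low-flow library 1 edgeR called 1476 genes at low flow, and without both libraries of the earlier run 374. No member had an unadjusted p under 0.05 in either comparison of all libraries, and DESeq2 called 0 members. The log2 fold-changes of EC-KO against control at low flow ran from −0.02 ± 0.42 for Smad6 to 1.43 ± 0.82 for Bmp2, and those of Acvrl1, Smad7 and Id1 were 0.10 ± 0.19, 0.08 ± 0.31 and 0.07 ± 0.39. The flow by genotype term called 0 members and 0 of 13352 genes (0%) with edgeR, against 21 by DESeq2, and the unadjusted p was under 0.05 for 538 genes. For Bmp6 that term was 1.03 ± 0.57 (unadjusted p = 0.10, adjusted p = 0.99) and for Id1 −0.22 ± 0.62 (adjusted p = 0.99). Without control low-flow library 1, Id3 was called higher in EC-KO at low flow (adjusted p = 0.021).

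**Figure D3:**
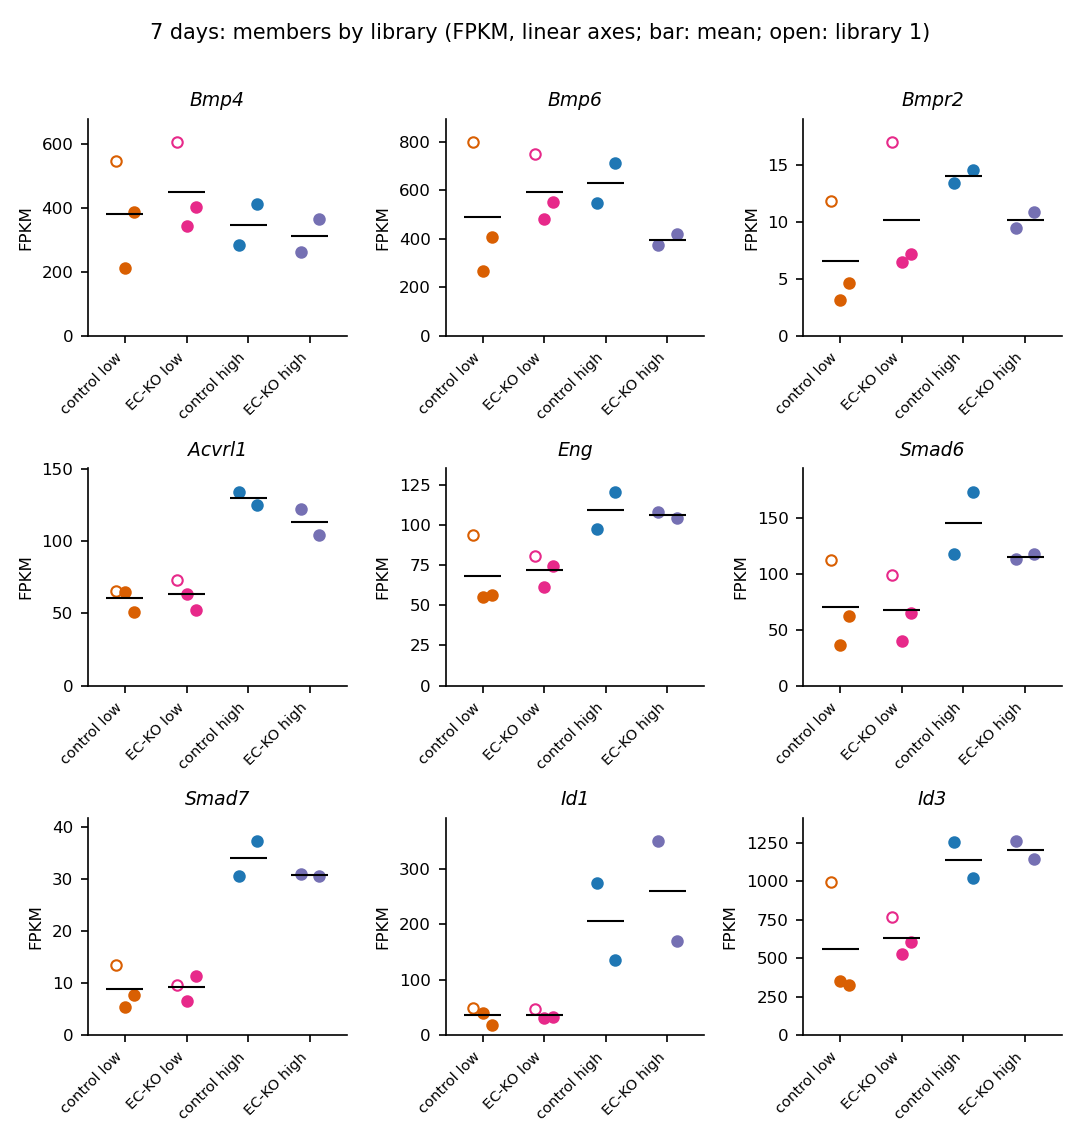
FPKM (vertical axes, linear) of 9 members at 7 days in the control and EC-KO libraries at low and high flow, with bars at the group means and library 1 drawn open. Smad7, Id1 and Acvrl1 at low flow lie below all high-flow libraries of their genotype, and library 1 is the highest low-flow control library of Bmpr2, Eng, Smad6 and Id3.

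**Figure D4:**
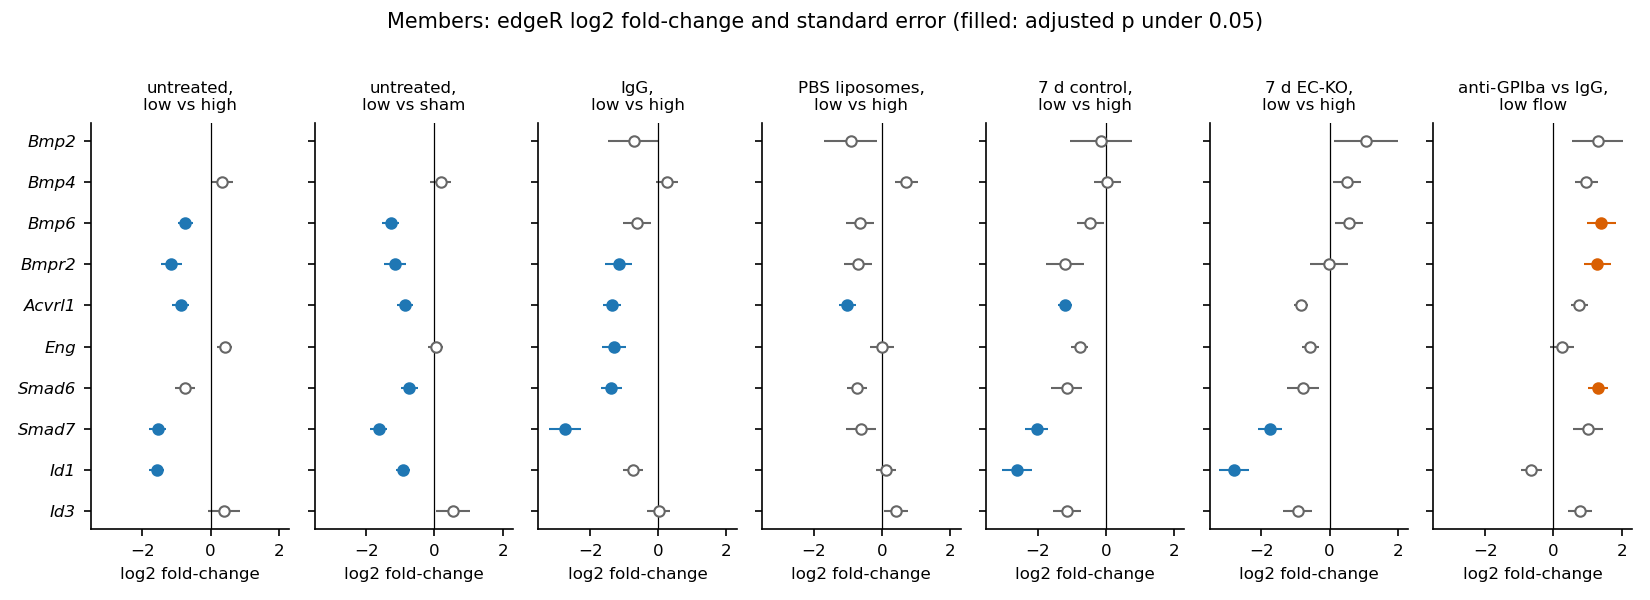
Log2 fold-change (horizontal axis) with its standard error for each member in 6 flow comparisons and in anti-GPIba against IgG, by edgeR, where filled points have an adjusted p under 0.05. Smad7 is filled in every flow comparison but PBS liposomes, Acvrl1 in every one but 7 d EC-KO, and Bmp4 in none.

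Cultured aortic endothelial cells were measured in 1 library per condition, so the values have no replicate check and no test. The TetOn-SV40 line is an aortic endothelial line immortalized with an inducible SV40 T antigen that was off in the experiment, and it was left untreated or given 10% plasma, platelets with macrophages, or all of these for 48 hr. Its endothelial markers made up 0.0282% to 0.0345% of counts, with Cdh5 at 1.86 to 5.75 FPKM, Cldn5 at 0.16 to 0.78 FPKM and Erg at 0.03 to 0.17 FPKM, although Pecam1 reached 53.1 to 82.9 FPKM, compared with 68.3 and 71.4 FPKM of Cdh5 in the primary control and EC-KO cells. The type I receptor Acvrl1 was low in the line too, at 2.52 to 3.54 FPKM against 48.5 and 57.7 FPKM in the primary cells, while the Id genes were abundant in both.

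In the line, Bmp4 had 251 FPKM untreated, 146 with platelets and macrophages, 56 with plasma and 36.1 with all 3 additions, 6.94-fold below the untreated cells. Bmp6 had 109, 114, 62.4 and 31.3 FPKM in the same order, and Bmp2 8.05, 8.2, 11.9 and 2.21 FPKM. The ligands were thus lowest where all additions were combined. Smad7 had 23.5 FPKM untreated and 12.5 to 13.4 FPKM in the other 3 libraries. Id1 had 316 FPKM untreated, 223 with platelets and macrophages, 347 with plasma and 183 with all, and Id3 645, 360.1, 583 and 285 FPKM. Eng (22 to 41.6 FPKM), Smad6 (33.2 to 70.3 FPKM) and Bmpr2 (1.97 to 3.28 FPKM) showed no common order. Macrophage markers made up 0.002% of counts in the untreated line and 0.0296% to 0.0376% where macrophages were added, and their part in these values was not tested.

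In the sorted primary cells (CD31+ and Icam2+, 7 days in culture), EC-KO and control had ratios between 0.94 and 1.22 in 8 of the 10 members. Eng had 333 and 336 FPKM, Smad6 249 and 241 FPKM, Smad7 45 and 44.6 FPKM and Bmp6 299 and 287 FPKM in EC-KO and control cells. Bmpr2 was the exception with 10.4 FPKM in EC-KO and 5.56 FPKM in control cells, a ratio of 1.88, and Bmp2 had 0 and 13 counts, where 0 allows up to 3. Macrophage markers made up 0.0002% of counts in the EC-KO and 0.0306% in the control cells, and their part in these values was not tested. Rbfox2 had 0.67 FPKM in the EC-KO and 9.33 FPKM in the control cells. Sorted eGFP+ aortic cells after 5 days in culture, from a library of 100 bp reads, had 2055 FPKM of Id3, 529.95 of Bmp4, 291 of Id1 and 9.65 of Smad7.

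**Figure D5:**
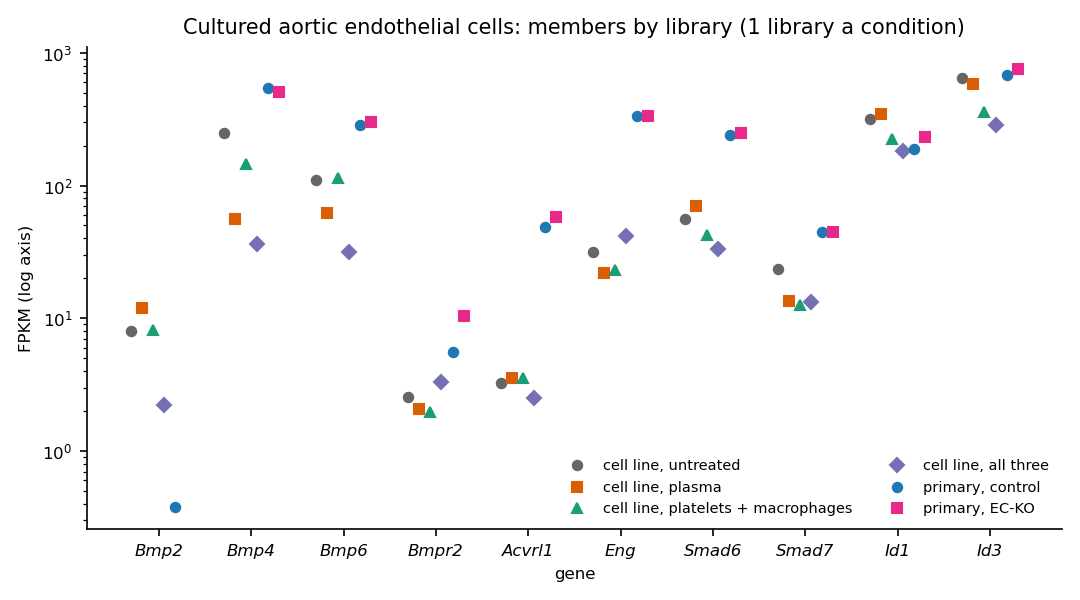
FPKM (vertical axis, log scale) of the 10 members in 4 libraries of the aortic endothelial line and 2 libraries of primary aortic endothelial cells, 1 library a condition. Bmp4 in the line drops from 251 FPKM untreated to 36.1 FPKM with plasma, platelets and macrophages, the primary EC-KO and control cells lie close together except for Bmpr2 (10.4 and 5.56 FPKM) and Bmp2, the last not drawn in the EC-KO cells because it had 0 counts.

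Other genes of the pathway, 85 from 5 lists of ligands, receptors, extracellular inhibitors, Smad regulators and targets, followed flow in a mixed way. Between low and high flow at 48 hr, 52 were tested, 6 rose and 18 fell (46.2% called), with a median log2 fold-change of −0.24. Over all genes, 5195 of 11236 were called in this comparison, which is also 46.2%, so the count stands at the level of the background. Of the 10 other receptors and co-receptors tested, 6 fell and 0 rose, among them the type I receptor Acvr1 (−1.09 ± 0.18, adjusted p = 0.00071) and the co-receptor Tgfbr3 (−1.34 ± 0.38, adjusted p = 0.015). Of the 14 Smads and Smad regulators tested, 2 rose and 3 fell. Ski (−1.57 ± 0.21, adjusted p = 0.00017) and Tob1 (−2.24 ± 0.24, adjusted p = 4.0e-05), both repressors of Smad activity, fell, while Smad2 (1.02 ± 0.17, adjusted p = 0.00077) was called higher, although its libraries overlapped on library totals (10.2 to 20.2 FPKM at low flow and 9.42 to 11.7 FPKM at high flow). Of the 12 other targets tested, 2 rose and 4 fell, with Hey2 (−1.25 ± 0.18, adjusted p = 0.0003), Hes1 (−1.92 ± 0.32, adjusted p = 0.00075) and Dlx5 (−2.08 ± 0.27, adjusted p = 0.00012) lower, and the gap junction gene Gja4 (3.12 ± 0.55, adjusted p = 0.0011) higher.

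Of the 11 extracellular inhibitors and modulators tested in untreated mice, 1 was called higher (Twsg1, 0.69 ± 0.25, adjusted p = 0.042) and 4 lower, where 22.6% of all genes were called lower and 46.2% in either direction. On library totals Twsg1 had 3.58 to 7.58 FPKM at low flow and 4.69 to 7.4 FPKM at high flow, with overlap and no rise. Nbl1 was among the 4 that fell (−1.77 ± 0.43, adjusted p = 0.0066). Chrd, which encodes the BMP antagonist chordin, had 0 to 0.336 FPKM at low flow and 2.39 to 2.85 FPKM at high flow (adjusted p = 0.0002). In IgG mice 4 of 15 fell, where 17.7% of all genes were called lower, and in PBS liposome mice 5 of 15 fell, where 15.5% were, and 2 rose. Chrd had 0.487 to 1.84 FPKM at low flow and 16.9 to 21 FPKM at high flow with IgG (−4.12 ± 0.55, adjusted p = 0.0008), and 0.448 to 0.645 against 11.7 to 16.6 FPKM with PBS liposomes (−4.58 ± 0.57, adjusted p = 0.00044), so its low-flow libraries lay far below in all 3 arms.

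Of the 14 receptors tested in the treated mice, 5 fell with IgG, where 17.7% of all genes were called lower, 7 fell with PBS liposomes, where 15.5% were, and 0 rose in either, including Tgfbr2 (−1.30 ± 0.27 and −1.45 ± 0.27) and Bmpr1a (−1.22 ± 0.26 and −1.67 ± 0.26). Tob1 fell in both (−2.35 ± 0.34 and −2.18 ± 0.34), as did Ski (−1.39 ± 0.29 and −1.62 ± 0.29). With anti-GPIba against IgG, 12 of 68 tested rose, where 6.05% of all genes were called higher, and 1 fell, where 1405 of 13401 genes were called lower, with 5 receptors among those that rose, such as Tgfbr3 (2.30 ± 0.54), Acvr1 (1.27 ± 0.27) and Bmpr1a (1.11 ± 0.26), and 2 extracellular inhibitors, Nbl1 (1.44 ± 0.40) and Smoc1 (1.42 ± 0.43). The targets Atoh8 (2.12 ± 0.41), Hey2 (1.36 ± 0.39), Dlx5 (1.09 ± 0.31) and Msx1 (0.96 ± 0.27) also rose, and the receptor-binding protein Fkbp1a fell (−1.74 ± 0.32). With anti-Gr1 and with clodronate 0 of 68 were called by edgeR, where 0 and 16 of all 13401 genes were. At 7 days in control mice, 2 of 66 were called, where 320 of 13352 genes were, so the count stands near the background. These 2 were Tob1 (−1.62 ± 0.28, adjusted p = 0.027) and Dlx5 (−2.40 ± 0.53, adjusted p = 0.048), and in EC-KO mice 0 of 66 were called, where 146 of 13352 genes were. The endothelial marker shares given above moved with these comparisons too, and their part in these counts was not tested.

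Across the 35 carotid libraries, which share read sets, flow and marker shares, Pearson correlations of log2(FPKM + 0.1) were computed as a description. Bmp6 and Smad6 were the closest pair of members (r = 0.97, n = 35), followed by Bmpr2 and Acvrl1 (0.89) and by Eng and Smad7 (0.87). Over the 24 libraries of 150 bp reads alone, these pairs had r = 0.66, 0.69 and 0.93, so that Eng and Smad7 were then the closest pair. Bmp6 and Id3 had r = −0.66 over 35 libraries and 0.28 over the 24, and the sign thus turned with the read set. Id1 and Id3 had r = 0.58 and 0.60. Among 11366 genes with a mean of at least 1 FPKM, the gene most like Smad7 was Tbkbp1 (r = 0.97), with Notch1 (0.95) in second place, and the gene most like Id1 was Icam2 (0.86). The nearest genes were Tm7sf3 for Bmp6 (0.99), Fgfrl1 for Smad6 (0.98), Ltbp4 for Acvrl1 (0.97), Wiz for Eng (0.94), Cyb5 for Id3 (0.95), Lpar1 for Bmp4 (0.88) and Unc13d for Bmp2 (0.85). Over the 24 libraries of 150 bp reads alone, an alternative added after the data were seen, Tbkbp1 (r = 0.97), Wiz (0.97) and Cyb5 (0.94) stayed in first place for Smad7, Eng and Id3. For Bmp2, Bmp4, Bmp6, Acvrl1, Smad6 and Id1 another gene took first place, and the genes named above for them had r = 0.87, 0.90, 0.88, 0.94, 0.89 and 0.82.

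Reads of some members can be shared with neighbours. Exons of Bmp4 overlap Gm15217, those of Bmp6 overlap Txndc5, those of Acvrl1 overlap Gm16031 and those of Eng overlap Fpgs on the opposite strand, and Eng overlaps Ak1 on its own strand. The counting options given by the study do not use strand, so such reads cannot be told apart.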

How the data were processed

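Intimal RNA was amplified with a SMARTer low-input kit from poly(A) transcripts. Per the methods and processing notes, the authors mapped reads to mm9 with STAR 2.5.1b (for the untreated pools TopHat is also named) and estimated expected counts per gene with RSEM 1.2.15. The deposited table holds 21674 named genes and 1 row with no name, which was left out. Of its 204 value columns, 55 columns of expected counts were used; 149 were not (136 of TPM or RPKM and 13 of counts).

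Expected counts were rounded and tested in R 4.3.3 with edgeR 4.0.16 (quasi-likelihood, filterByExpr, TMM scaling, Benjamini-Hochberg over all genes tested, adjusted p under 0.05). Untreated groups were fitted pairwise, the 7 treated groups together and the 4 groups at 7 days together. DESeq2 1.42.0, RLE scaling, no filter, fits of 2 groups, a replicate block, leave-one-out, and libraries scaled to endothelial markers were alternatives. The procedure was tested on simulated data.

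FPKM were computed from the count, the effective length and the library total with Python 3.11.15, pandas 2.3.3 and numpy 2.4.6, and figures drawn with matplotlib 3.10.9. Over the members, the deposited RPKM were 0.891 to 1.341 times these values. At most 3 counts were taken as not detected. Intervals of counting error are not given, since amplified reads are not independent molecules.

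All members are named, and of the other pathway genes up to 4 per list and comparison, those with the largest change among called genes whose groups did not overlap in TMM-scaled FPKM; of these, the text names some. Members and lists were chosen with earlier results of these data known. Gene positions are from NCBIM37 (mm9), promoters from GRCm38.p6. The gene most like Bmpr2 across libraries is not reported here.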

Additional observations from a re-analysis of the deposited data

Results flagged for a closer look

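Bmp6 and Id3 moved in opposite directions with flow in different arms, with every low-flow library on one side of every high-flow library in each arm named. The log2 ratio of the mean TMM-scaled FPKM at low flow to that at high flow was −0.75 for Bmp6 in untreated mice, −0.62 in IgG mice and −0.66 in PBS liposome mice, all at 48 hr, and 0.57 in EC-KO mice at 7 days. For Id3 it was 0.41 in PBS liposome mice at 48 hr, −1.13 in control mice at 7 days and −0.94 in EC-KO mice at 7 days. These directions depend on the scaling. Scaled to endothelial markers, the fitted log2 fold-change of Bmp6 with flow was −0.32 in untreated mice, 1.04 in IgG mice, 0.49 in PBS liposome mice and 1.46 in EC-KO mice, and that of Id3 was 1.52 in PBS liposome mice, −0.08 in control and −0.04 in EC-KO mice at 7 days. The difference was not tested in any of these pairs, because the arms were fitted separately, and on the TMM scale only Bmp6 in untreated mice was called by edgeR among these. Time, age, sex and genotype of the mice, and in untreated mice read length, cannot be told apart in these pairs. In the IgG and PBS liposome arms, flow itself cannot be told apart from the sequencing run.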

How the results depend on the processing

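Each comparison was refitted under the alternatives, and the numbers here are members called unless said otherwise. Over the 157 fold-changes of single members, RLE scaling changed no call and fits with no filter on low counts changed 2. DESeq2 called 2 members for flow with PBS liposomes, 5 for anti-GPIba and 1 for anti-Gr1. Fits of only the 2 groups compared called 2 for flow with PBS liposomes, 7 for anti-GPIba and, for flow at 7 days, 0 in control and 4 in EC-KO mice. Without the libraries of the earlier run, 8 and 4 were called for flow at 7 days, and reads trimmed to 100 bp left 1 for anti-GPIba. Scaling to endothelial markers gave 3 and 1 for low flow against high flow and sham, 4 with PBS liposomes, 1 for anti-GPIba and 0 for flow in EC-KO mice. It changed the sign of 53 of the 157 fold-changes, 45 of them where neither scaling gave a call. In the 8 with a call under one of the scalings, the values turned to those of Bmp6 (1.04), Bmpr2 (0.50), Acvrl1 (0.33), Eng (0.38) and Smad6 (0.31) with IgG, Acvrl1 (0.12) and Eng (1.14) with PBS liposomes and Acvrl1 (0.08) in 7 d control mice. The same scaling moved the median log2 fold-change of all genes from 0.07 to 1.77 with IgG and from 0.06 to 1.19 with PBS liposomes. In untreated mice it moved from −0.07 to 0.27. The cause of the changes in this paragraph was not tested.

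Over all genes, the number called moved by more than 1.5 times in several comparisons. At 7 days, flow in control mice gave 320 genes, 2207 with DESeq2, 654 with no filter, 3 with 2 groups and 3840 without the earlier run, and flow in EC-KO mice gave 146, 948, 221, 858 and 1100. EC-KO against control at low flow gave 0, and 374 without the earlier run. For anti-GPIba it was 2216 genes, 3683 with DESeq2, 4449 with 2 groups, 6317 scaled to endothelial markers and 1 to 89 without 1 library. For clodronate it was 16 genes, 462 with DESeq2, 92 with no filter and 937 without clodronate library 2. On library totals 642 genes were higher and 2716 lower at low flow than in sham arteries, where TMM gave 2304 and 2195, and against high flow 1044 and 3084.

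Leaving out 1 library gave 3 to 6 members for low against high flow, 3 to 6 against sham, 2 to 5 with IgG, 0 to 1 with PBS liposomes, 0 in each fit for anti-GPIba, 0 to 1 for clodronate, 0 to 8 for flow in 7 d control mice, 0 in each fit for EC-KO mice and 0 to 1 for EC-KO against control at low flow. With 2 libraries a group, the lone library left was assumed to vary like the other groups.

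The replicate number as a block gave 5 members for anti-GPIba (3307 genes), 8 for flow in 7 d control mice (2940 genes) and 6 in EC-KO mice (1317 genes). The numbers do not mark shared mice in the labels, and same-numbered libraries deviated together only in part, with correlations from −0.155 to 0.443 in treated mice (16 of 42 pairs above 0.1) and from −0.032 to 0.489 at 7 days (9 of 13 pairs), so the block was not used. Untreated pools carry no number and were not blocked. The second run of the untreated pools and the sum of both runs were planned and not run, since their columns could not be tied to samples. Depth limits Bmp2, at 8 counts or fewer in the low-flow and high-flow untreated pools, and Bmpr2 in low-flow pools A and B.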
